A study of Homo sapiens with 6 samples.

Results

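The genes described here encode the semaphorins, a family of guidance signals, and their receptors, the plexins and neuropilins, measured by RNA-seq in SW403 cells. The family was chosen with earlier results of these data known. Its genes were taken by symbol, as every matching row of the count table. These were the semaphorins of class 3 to 7, the plexins of type A to D and the neuropilins. This gave 31 genes of the 26490 in the table, and the 26 with a mean of at least 10 counts over the 6 libraries were described. The last gene inside this limit was PLXNA2, with a mean of 11 counts, and the first outside it was SEMA3E, with 7.83. SW403 is an established human colon adenocarcinoma line. All 6 libraries came from cultures kept for 24 h in DMEM with serum and no added treatment. The control group (3 libraries) had normal expression of IRS2, the adaptor insulin receptor substrate 2, and the other group (3 libraries) carried an IRS2 knockdown. How IRS2 was lowered, and whether replicate cultures stem from separately derived lines, is not given in the labels. Sample titles and genotype say knockdown while the sample descriptions say KO, and the group is called a knockdown here. The titles call the 3 libraries of each group biological replicates, without saying what was repeated. P-values therefore measure the spread between these cultures, which may not include that between separately derived lines.

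Semaphorins bind plexins, transmembrane receptors whose cytoplasmic part acts on small GTPases of the Rap and R-Ras type and, through partner proteins, on the cytoskeleton. Class 3 semaphorins are secreted and mostly need a neuropilin as the ligand-binding partner of a plexin A. Classes 4, 5 and 6 are membrane proteins that largely bind plexins directly, and SEMA7A is held by a lipid anchor. The family was first known for steering axons. In epithelial tumours it is also studied for effects on migration, vessel growth and signalling by receptor kinases such as MET.

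Most of the abundant receptors were higher after IRS2 knockdown, while a set of scarce class 3 and class 6 semaphorins was lower. Of the 26 genes, 9 were higher and 6 lower by edgeR's quasi-likelihood test (threshold 0.05 on the adjusted p), and 11 did not pass. The 9 that rose were both neuropilins, 5 plexins (PLXNA1, PLXNA3, PLXNB1, PLXNB2 and PLXND1) and the semaphorins SEMA4B and SEMA3B. The 6 that fell were SEMA3C, SEMA3D, SEMA3F, SEMA6A, SEMA6C and SEMA6D. The share called, 57.7%, stands beside 38.5% of the 13832 genes tested, of which 19.3% were higher and 19.2% lower. The groups did not overlap for 17 of the 26 genes, beside 47.6% of all tested genes. The median log2 fold change of the 26 genes was 0.11, against -0.0039 over all tested genes. All 26 passed the expression filter of the test.

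The promoters of 4 genes are printed because they belong to receptors that rose together (PLXNA1 and NRP2) and to chromosome 7 semaphorins that fell by nearly the same factor (SEMA3C and SEMA3D). Each run is the 250 bases before the annotated start, 5′ to 3′ on the gene's strand, from RefSeq on GRCh38.p14. Capitals mark the GC box, searched as GGGCGG on both strands with overlaps counted. The windows are chr3:126982865-126983114 (plus strand), chr2:205682251-205682500 (plus strand), chr7:80919052-80919301 (minus strand) and chr7:85187057-85187306 (minus strand).
PLXNA1: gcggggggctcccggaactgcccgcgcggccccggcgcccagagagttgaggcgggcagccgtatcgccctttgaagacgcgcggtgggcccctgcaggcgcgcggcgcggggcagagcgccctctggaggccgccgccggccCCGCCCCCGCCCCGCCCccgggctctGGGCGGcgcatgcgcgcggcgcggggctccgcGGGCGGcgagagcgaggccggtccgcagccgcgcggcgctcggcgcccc
NRP2: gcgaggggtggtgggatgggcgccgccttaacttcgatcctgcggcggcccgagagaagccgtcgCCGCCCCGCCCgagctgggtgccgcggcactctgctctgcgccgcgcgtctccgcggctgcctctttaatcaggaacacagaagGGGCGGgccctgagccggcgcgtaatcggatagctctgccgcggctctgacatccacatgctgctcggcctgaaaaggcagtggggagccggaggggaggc
SEMA3C: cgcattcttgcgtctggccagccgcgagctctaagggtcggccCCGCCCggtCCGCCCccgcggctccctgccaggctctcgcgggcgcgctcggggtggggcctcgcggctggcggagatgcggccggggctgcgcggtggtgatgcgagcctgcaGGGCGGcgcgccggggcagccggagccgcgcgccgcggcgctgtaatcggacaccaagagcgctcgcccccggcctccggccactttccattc
SEMA3D: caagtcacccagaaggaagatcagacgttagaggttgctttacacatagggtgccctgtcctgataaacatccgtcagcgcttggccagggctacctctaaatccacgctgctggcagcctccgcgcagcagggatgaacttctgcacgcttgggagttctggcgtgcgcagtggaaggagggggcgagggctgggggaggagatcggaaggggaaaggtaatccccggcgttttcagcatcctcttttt

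The PLXNA1 window held 5 GC boxes at a GC content of 84.4%, and the NRP2 window held 3 at 70.0%. SEMA3C resembled these receptors, with 3 GC boxes at 77.6%, whereas SEMA3D had 0 at 57.6%. A window at the start of the canonical transcript was found for 24 of the 31 genes, and 19 of these (79.2%) held a GC box. Of all 35114 RefSeq windows of this length, 42.6% did. Those windows include other annotated starts and not only canonical ones, so these shares, and those for the motifs below, come from unlike sets. Among genes that rose, 5 of 6 windows had one, among genes that fell, 3 of 5, and among tested genes that did not pass, 8 of 8. A TATA box (TATAAA), a FOXO motif (GTAAACA) and a TCF motif (ATCAAAG), also searched on both strands, were in 0 of the 24 windows, beside 10.7%, 2.98% and 2.26% of all windows. An E-box (CACGTG) was in 1, that of SEMA3E, beside 6.35%. At other annotated starts of the family, a TATA box was in a SEMA3E window and a FOXO motif in a SEMA4B window. There, TCF motifs were in windows of SEMA3F, SEMA4G and SEMA6D, and E-boxes in windows of SEMA4D and SEMA6D. A match is a description of these letters and not a binding site.

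The targeted gene was lower in every knockdown library. IRS2 was at 32.1, 34.6 and 31.8 TMM-scaled CPM in control replicates 1 to 3 and at 13.1, 12.4 and 12.1 in knockdown replicates 1 to 3. CPM is the usual depth-scaled read count, here with library sizes adjusted by edgeR's TMM factors. The log2 fold change was -1.39 ± 0.072 (SE, n = 3 each; edgeR adjusted p 3.12e-11).

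Control libraries held 11816973 to 12585013 counts and knockdown libraries 14329348 to 18114656, so every knockdown library was the deeper. The epithelial keratin genes KRT8 and KRT18, at 1096 ± 17.6 and 1121 ± 36.0 CPM in control (SD, n = 3), EPCAM and the intestinal factor CDX2 were present. Of 12 epithelial colon markers, 6 passed the filter. CDX1 and KRT20 had 0 counts in all libraries, and CDH1, LGALS4, CDH17 and GPA33 had means of 0.5 to 3.17 counts, so part of the colon marker set was absent. KRT19 fell from 228 to 164 CPM (log2 fold change -0.47; edgeR adjusted p 4.35e-08) and EPCAM by 0.21 on the log2 scale (edgeR adjusted p 0.00581; DESeq2 0.0707). CDX2 was higher by 0.14 (edgeR adjusted p 0.0148), a call lost in 5 of 18 alternatives, among them without control replicate 1 (0.0668) and without knockdown replicate 2 (0.0644). Blood cell markers summed to at most 4.09 CPM and endothelial markers to at most 0.951 CPM in any library.

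**Figure D1:**
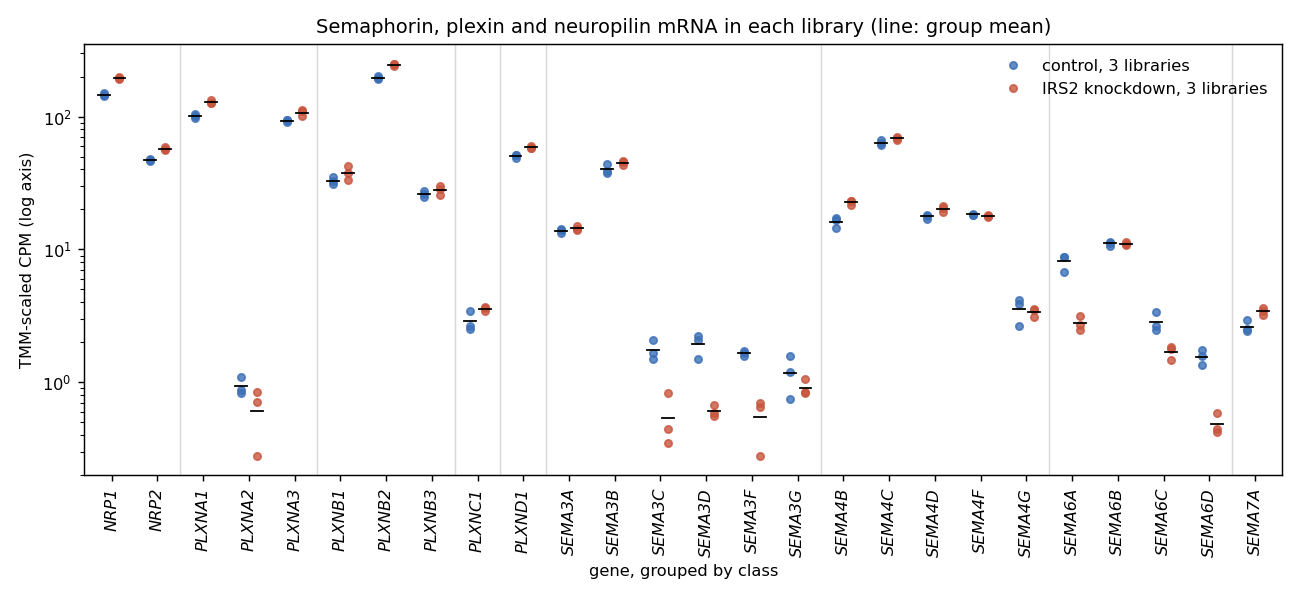
TMM-scaled CPM (log axis) of the 26 genes in each of the 3 control and 3 IRS2 knockdown libraries, with group means as lines, grouped by class. NRP1 sits between 143 and 149.8 in control and between 192 and 199 in knockdown, while SEMA6A sits between 6.81 and 8.81 in control and between 2.49 and 3.17 in knockdown.

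Both neuropilins rose. NRP1, the usual partner for SEMA3A and also a co-receptor for VEGF-A, lies on chromosome 10 (GRCh37, 33466420 to 33625190, minus strand, 17 exons in the canonical transcript). It was at 144, 143 and 149.8 CPM in control replicates 1 to 3 and at 192, 199 and 196 CPM after knockdown replicates 1 to 3. All 3 knockdown libraries were above all 3 controls, with a log2 fold change of 0.43 ± 0.035 (SE; edgeR adjusted p 1.35e-08), a 1.35-fold rise. NRP2, which prefers SEMA3F and binds VEGF-C, lies on chromosome 2 (GRCh37, 206546714 to 206662857, plus strand). It had 46.2, 48.1 and 47.2 CPM in controls and 58.7, 56.1 and 57.1 CPM after knockdown, again without overlap. Its log2 fold change was 0.28 ± 0.048 (SE; edgeR adjusted p 0.000111). Per kb of transcript, NRP1 made up 77.8% to 78.9% of the summed neuropilin level in control and 79.4% to 80.7% in knockdown, so it was the main neuropilin in both groups. Both genes share exon sequence with antisense transcripts of the annotation that have no row of their own in the count table, and the strand setting of the counting is not given.

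Among the type A plexins, which pair with neuropilins, PLXNA1 and PLXNA3 rose. PLXNA1 had 100.5, 105 and 97.4 CPM in controls and 134, 127 and 126 CPM after knockdown (log2 fold change 0.35 ± 0.040 SE; edgeR adjusted p 1.19e-06). PLXNA3, on the X chromosome, had 94.9, 90.2 and 94.1 CPM in controls and 112, 109 and 101 CPM after knockdown (log2 fold change 0.20 ± 0.045 SE; edgeR adjusted p 0.00128). Neither gene's groups overlapped, although knockdown replicate 3 was the lowest of its group for both. PLXNA2, a receptor for SEMA6A, was close to the detection limit at 4 to 15 counts a library, and its log2 fold change of -0.57 ± 0.38 (SE) did not pass (edgeR adjusted p 0.267). PLXNA4, another receptor of class 6 semaphorins, had 0 counts in all 3 controls and 1, 1 and 0 counts in knockdown. A count of 0 allows up to 3 counts, or 0.236 to 0.251 CPM in a control library.

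PLXNB2, the receptor for SEMA4C, was the most abundant plexin and rose. It lies on chromosome 22 (GRCh37, 50713408 to 50746075, minus strand, 37 exons). Its level was 194, 193 and 201 CPM in controls and 246, 250.2 and 241 CPM after knockdown. The groups were well apart, with a log2 fold change of 0.33 ± 0.033 (SE; edgeR adjusted p 2.10e-07). PLXNB1, the receptor for SEMA4D, had 35.0, 32.7 and 31.0 CPM in controls and 42.2, 37.8 and 33.6 CPM after knockdown. Knockdown replicate 3 lay within the control range, and the call was near the threshold (log2 fold change 0.19 ± 0.074 SE; edgeR adjusted p 0.0460). Without control replicate 2 or 3, or without knockdown replicate 1 or 2, the edgeR adjusted p of PLXNB1 was 0.104, 0.152, 0.230 and 0.104. In all, its call was lost in 10 of 18 alternatives, including DESeq2 (adjusted p 0.122), limma voom (0.0639), upper-quartile factors (0.0739) and library size alone (0.101). PLXNB3, at 24.6 to 27.6 CPM in controls and 25.6 to 29.9 CPM after knockdown, did not pass (edgeR adjusted p 0.306). Its canonical exons share 1247 nt with the neighbouring gene SRPK3 on the same strand.

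PLXND1, the receptor for SEMA3E, rose from 48.4, 51.3 and 51.7 CPM in control to 58.2, 59.9 and 58.2 CPM after knockdown. The log2 fold change was 0.22 ± 0.048 (SE; edgeR adjusted p 0.00104), and the groups did not overlap. PLXNC1, the receptor for SEMA7A, was scarce at 2.54 to 3.46 CPM in controls and 3.45 to 3.67 CPM after knockdown and did not pass (log2 fold change 0.31 ± 0.19 SE; edgeR adjusted p 0.205). It shares 177 nt of exon sequence with CEP83 on the opposite strand. In all, 7 of the 10 described receptors rose and 0 fell, by 1.14-fold (PLXNB1) to 1.35-fold (NRP1). Beside this, 19.3% of all tested genes were higher and 23.8% of those averaging 100 counts or more. The 7 that rose all averaged over 500 counts, where 28.6% of tested genes were higher. The summed receptor level was 98.8 to 100.3 CPM per kb in control libraries and 122 to 126 CPM per kb in knockdown libraries.

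**Figure D2:**
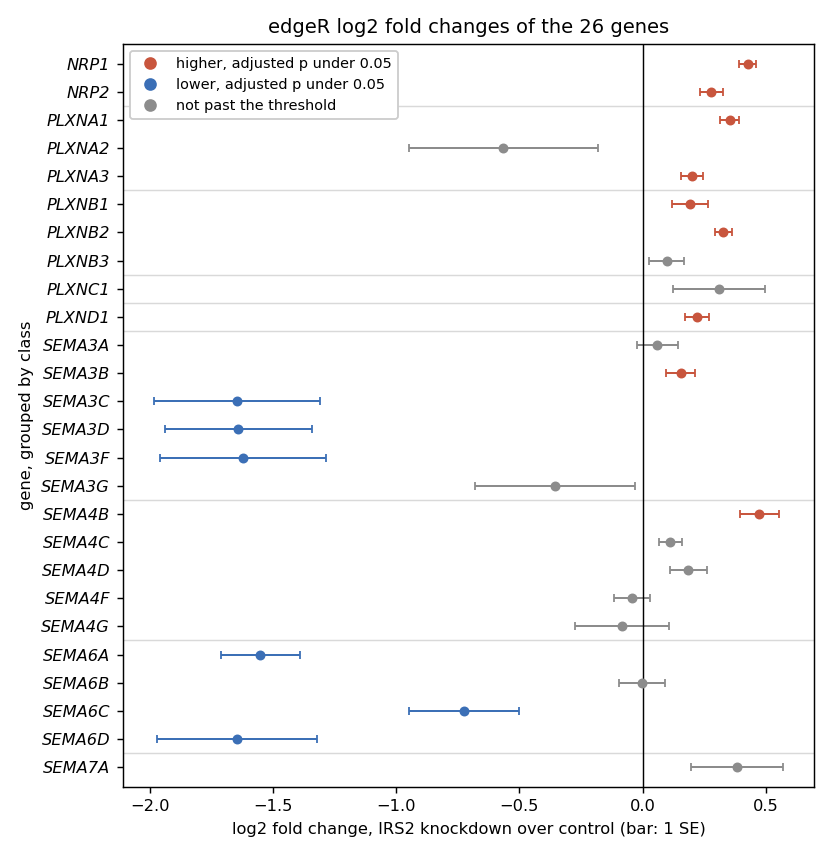
Log2 fold changes of the 26 genes, knockdown over control, from edgeR, with bars of 1 SE; colours give the call at an adjusted p under 0.05. The receptors past the threshold lie between 0.19 and 0.43, whereas 5 of the 6 semaphorins past it on the lower side lie between -1.65 and -1.55.

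Of the 16 described semaphorins, 2 rose, 6 fell and 8 did not pass. In the secreted class 3, SEMA3B was the most abundant, with 44, 37.9 and 39.1 CPM in controls and 42.8, 45.7 and 46.0 CPM after knockdown. SEMA3B, a candidate tumour suppressor of the short arm of chromosome 3, just passed (log2 fold change 0.16 ± 0.059 SE; edgeR adjusted p 0.0443), although control replicate 1 lay inside the knockdown range. Leaving out control replicate 2 or 3, or knockdown replicate 2 or 3, gave it an edgeR adjusted p of 0.20, 0.119, 0.129 and 0.109. In all, the call of SEMA3B was lost in 12 of 18 alternatives, including DESeq2 (adjusted p 0.164), upper-quartile factors (0.0869) and library size alone (0.108). SEMA3A, the classical repellent ligand of NRP1, was at 13.9 ± 0.452 CPM in controls and 14.5 ± 0.498 CPM after knockdown (SD over 3 libraries) and did not pass (edgeR adjusted p 0.608). SEMA3A and SEMA3B together held 90.2% to 91.4% of the length-scaled class 3 level in control and 96.2% to 96.8% in knockdown.

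SEMA3C, SEMA3D and SEMA3F fell by 3.08-fold to 3.13-fold, from low levels. SEMA3C, on chromosome 7 (GRCh37, 80371854 to 80551675), had 19, 21 and 25 counts in controls and 5, 14 and 8 after knockdown, although the latter libraries were deeper. This was 1.75 ± 0.306 CPM in controls and 0.543 ± 0.252 CPM after knockdown (SD over 3 libraries), with a log2 fold change of -1.65 ± 0.34 (SE; edgeR adjusted p 0.000684). SEMA3D, further along chromosome 7 (GRCh37, 84624869 to 84816372), had 19, 28 and 25 counts in control and 8, 10 and 12 in knockdown (log2 fold change -1.64 ± 0.30 SE; edgeR adjusted p 0.000235). SEMA3F, a ligand of NRP2, lies on chromosome 3 (GRCh37, 50192478 to 50226508). It had 22, 21 and 19 counts in control and 10, 11 and 5 in knockdown (log2 fold change -1.62 ± 0.34 SE; edgeR adjusted p 0.000759). For none of these 3 did the groups overlap. SEMA3G, an endothelial-type class 3 ligand, had 9 to 20 counts in control and 12 to 19 in knockdown and did not pass (edgeR adjusted p 0.421).

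Class 3 genes that fell lie near others that did not pass or that rose, and whether position had a part was not tested. SEMA3A (GRCh37, 83585093 to 84122040) and SEMA3E (82992554 to 83278455) lie on chromosome 7 between SEMA3C and SEMA3D, and SEMA3A did not pass. SEMA3E, under the count limit and not tested, had 14, 11 and 6 counts in control and 6, 4 and 6 in knockdown. On chromosome 3, SEMA3B (50304990 to 50314977), which rose, lies on the same strand and arm as SEMA3F, which fell.

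Class 4, the transmembrane ligands of type B plexins, contained the largest rise of the family. SEMA4B, on chromosome 15 (GRCh37, 90703836 to 90772911), had 17.3, 16.7 and 14.5 CPM in controls and 23.3, 23.0 and 21.4 CPM after knockdown. Every knockdown library exceeded every control, with a log2 fold change of 0.47 ± 0.079 (SE; edgeR adjusted p 9.47e-05), a 1.39-fold rise. SEMA4C, the most abundant semaphorin, had 66.4, 61.1 and 63.6 CPM in controls and 70.4, 66.9 and 69.5 CPM after knockdown. Its groups did not overlap, but the difference did not pass (log2 fold change 0.11 ± 0.046 SE; edgeR adjusted p 0.0602). It did pass without control replicate 1 (edgeR adjusted p 0.0363), without a low-count filter (0.0436) and in limma on the deposited normalized values (0.0477). SEMA4D, the ligand of PLXNB1, was similar at 17.7 ± 0.684 and 20.2 ± 1.14 CPM (SD over the 3 libraries of a group; edgeR adjusted p 0.0586, and 0.0278 without knockdown replicate 3).

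SEMA4F, at 18.3 ± 0.251 and 17.8 ± 0.217 CPM (SD over 3 libraries), and SEMA4G, at 3.57 ± 0.793 and 3.37 ± 0.243 CPM, did not pass (edgeR adjusted p 0.685 and 0.772). The canonical exons of SEMA4G share 826 nt with MRPL43 on the opposite strand. SEMA4A had 4, 1 and 3 counts in control and 2, 1 and 2 in knockdown, too few to test. Class 5 was not detectable above a few reads: SEMA5A had 1 count and SEMA5B 1 count at most in any library.

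Class 6, the transmembrane ligands of type A plexins, contained the clearest single fall of the family, that of SEMA6A. SEMA6A, on chromosome 5 (GRCh37, 115779251 to 115910519, minus strand, 19 exons), had 112, 86 and 105 counts in control and 45, 42 and 48 in knockdown. Scaled, these were 8.81, 6.81 and 8.77 CPM against 3.17, 2.49 and 2.69 CPM, a 2.93-fold fall without overlap (log2 fold change -1.55 ± 0.16 SE; edgeR adjusted p 3.58e-07). Its antisense gene SEMA6A-AS1 had 15 counts over the controls and 28 over the knockdown libraries. SEMA6D, a ligand of PLXNA1, had 20, 17 and 21 counts in control and 6, 10 and 8 in knockdown (log2 fold change -1.65 ± 0.32 SE; edgeR adjusted p 0.000469).

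SEMA6C had 43, 31 and 32 counts in control and 21, 30 and 33 in knockdown. After scaling its groups did not overlap, at 2.84 ± 0.484 and 1.70 ± 0.198 CPM (SD over the 3 libraries of a group; log2 fold change -0.73 ± 0.22 SE; edgeR adjusted p 0.0142). That call was lost without control replicate 1 (edgeR adjusted p 0.0878), without knockdown replicate 1 (0.0536) and in the DESeq2 Wald test (0.117). SEMA6B, the most abundant of the class, was at 11.1 ± 0.380 CPM in controls and 11.1 ± 0.339 CPM after knockdown (SD over the 3 libraries of a group; edgeR adjusted p 0.987). The class therefore held 3 genes that fell beside 1 with a log2 fold change of -0.0035 ± 0.094 (SE). SEMA7A, the lipid-anchored ligand of PLXNC1 and integrins, was at 2.62 ± 0.268 and 3.42 ± 0.187 CPM and did not pass despite groups that did not overlap (edgeR adjusted p 0.115).

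Rises and falls past the threshold lay on opposite sides of an abundance limit. All 9 genes that rose had a mean of at least 100 counts, where 15 of the 26 genes lie and where 23.8% of all tested genes were higher. SEMA7A (0.38 ± 0.19 SE) and PLXNC1 (0.31 ± 0.19 SE), with fewer counts, had log2 fold changes within the range of the 9, 0.16 to 0.47. Their SEs were larger and neither passed, so small rises of scarce genes could be missed. The 6 that fell all had a mean under 100 counts, where 11 of the genes lie and where 23.2% of tested genes were lower and 5.67% higher. Falls of at least 2-fold were seen for 5 of these 11 genes and for 14.2% of the 3296 tested genes with a mean of 10 to under 100 counts. Among all genes called lower in that range, the median log2 fold change was -1.22 and the middle 50% ran from -1.66 to -0.76. The values of SEMA3C, SEMA3D, SEMA3F, SEMA6A and SEMA6D, from -1.65 to -1.55, lie near its lower quartile and differ from each other by less than any one's SE. Some scarce genes of the pathway and marker lists, picked here because they fell, had similar values. Among them were the VEGF receptor gene FLT4 (-1.61), the GTPase gene MRAS (-1.53), the proteoglycan gene CSPG4 (-1.82) and the collagen gene COL3A1 (-1.71). Other scarce genes of the same lists did not pass, such as FLT1 (-0.020), DPYSL4 (-0.0027) and PDGFRB (-0.18). Falls of about this size were thus seen for some scarce genes outside the family. Whether unequal amounts of RNA from other cells had a part in these falls was not tested.

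Some of the marker genes listed for other cell types also differed between the groups. The summed level of 8 fibroblast markers was 27.8, 11.3 and 9.44 CPM in control replicates 1 to 3 and 6.89, 6.04 and 7.58 CPM after knockdown replicates 1 to 3, so every control was above every knockdown library. Of the 3 that could be tested, PDGFRB (log2 fold change -0.18) did not pass and the collagen genes COL1A1 and COL3A1 fell. COL1A1 had 15.2, 5.70 and 5.60 CPM in controls and 4.29, 3.67 and 4.04 CPM after knockdown, and its log2 fold change of -1.15 was -0.50 without control replicate 1. COL3A1 (log2 fold change -1.71) had groups that overlapped, and its call was lost without control replicate 1 (edgeR adjusted p 0.179) or knockdown replicate 2 (0.0766). None of the 8 was at 0 in all libraries, but THY1 had a mean of 0.167 counts. COL1A2, not tested, had 86, 11 and 3 counts in controls and 8, 1 and 8 after knockdown, and its groups overlapped. PDGFRA, LUM and DCN, with means of 5.5, 4.83 and 1.17 counts, were lower without overlap and not tested. The sum of 6 neural markers, most of it SYT1, was 39.0, 40.5 and 39.8 CPM in controls and 33.3, 32.4 and 28.1 CPM after knockdown, again without overlap, and SYT1 fell (log2 fold change -0.35; edgeR adjusted p 0.000461). SNAP25, the other neural marker tested, did not pass (log2 fold change -0.33, edgeR adjusted p 0.291). RBFOX3, MAP2, ELAVL4 and GFAP had means of 0.333 to 3.33 counts, so the neural difference rests on SYT1. The part of the fibroblast and neural markers in the semaphorin result was not tested. Without control replicate 1, which had the highest fibroblast marker sum, 5 semaphorins were lower and SEMA6C did not pass, while control replicates 2 and 3 kept marker sums above all knockdown libraries. In a bulk culture, fewer cells of a kind and less RNA per cell cannot be told apart.

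**Figure D3:**
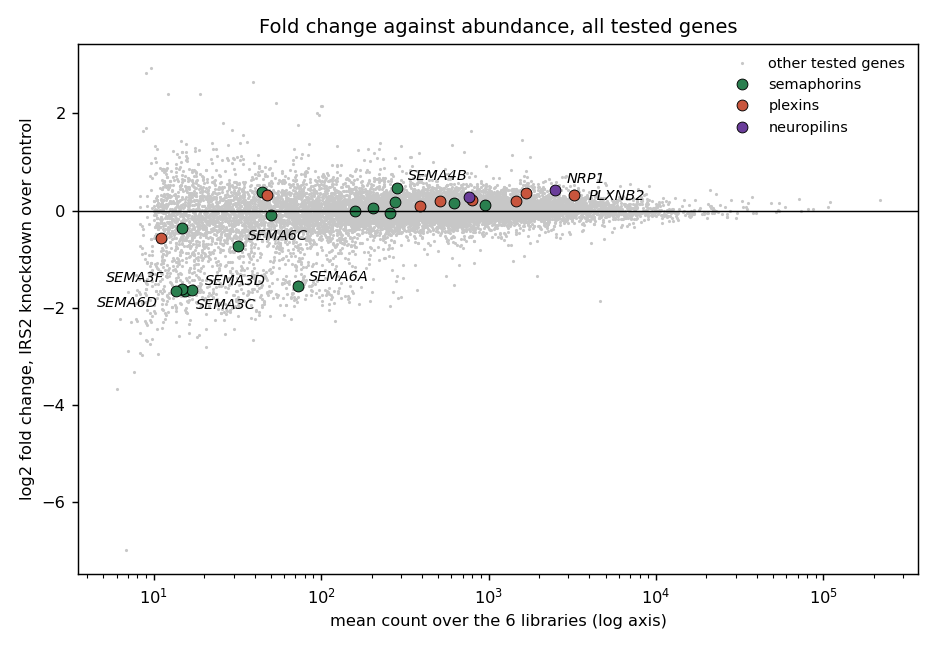
Log2 fold change, knockdown over control, against the mean count over the 6 libraries (log axis) for all 13832 tested genes, with semaphorins, plexins and neuropilins coloured. The 9 genes that rose lie to the right, at means of at least 100 counts, and the 6 that fell lie to the left, among many other genes with values near those of SEMA3C and SEMA6A.

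Levels of different genes were compared per kb of canonical transcript, since plexin transcripts are long. In control, PLXNB2 (30.6 ± 0.689 CPM per kb) stood above NRP1 (25.8 ± 0.649), followed by SEMA4C (17.4 ± 0.722), SEMA3B (12.7 ± 1.01), PLXNA1 (10.8 ± 0.391) and PLXNA3 (8.55 ± 0.228; SD, n = 3 each). PLXND1 (7.30 ± 0.257) and NRP2 (7.10 ± 0.146) did not differ beyond their spread, nor did PLXNB1 (4.58 ± 0.279), SEMA4B (4.28 ± 0.385) and PLXNB3 (4.23 ± 0.241). The first 6 places were the same in knockdown. SEMA6A moved from rank 16 in control to rank 20 of 31 in knockdown. The other 5 genes that fell ranked 19 to 24 in control.

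A pair of genes made up most of the ligand pool. SEMA3B and SEMA4C together held 57.4% to 59.6% of the summed length-scaled semaphorin level in control libraries and 60.2% to 61.6% in knockdown libraries. The 6 genes that fell held 6.0% to 6.90% in control and 2.24% to 2.50% in knockdown. The whole semaphorin sum was 49.9 to 53.6 CPM per kb in control and 54.1 to 54.4 CPM per kb in knockdown. By class, the class 4 sum was 29.5 ± 1.06 in control and 33.0 ± 0.469 in knockdown, and the class 6 sum was 5.06 ± 0.268 and 3.79 ± 0.104 CPM per kb (SD over 3 libraries). These sums are descriptions with no test.

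**Figure D4:**
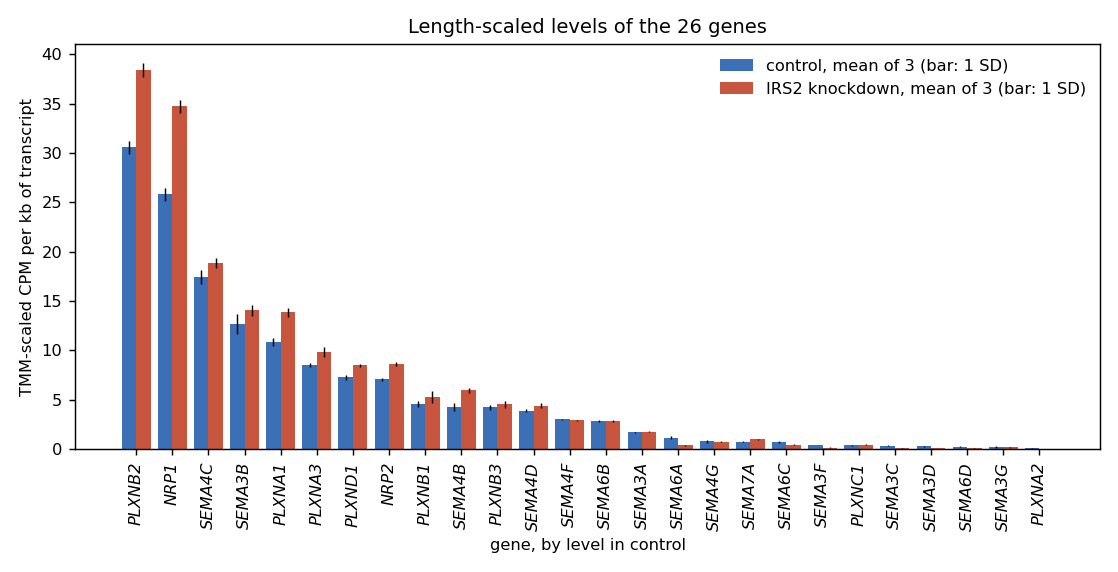
Mean TMM-scaled CPM per kb of canonical transcript for the 26 genes in control and IRS2 knockdown, with bars of 1 SD over 3 libraries, ordered by the control level. PLXNB2 and NRP1 lead both groups, at 30.6 and 25.8 in control and 38.4 and 34.7 in knockdown, and the semaphorins that fell are at the low end.

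Other genes of the pathway, from lists written by hand, changed in both directions. Of 14 tested co-receptors and binding partners, 5 rose and 4 fell, with a median log2 fold change of -0.016 (64.3% called, beside 38.5% of all tested genes). L1CAM, which joins NRP1 in the SEMA3A receptor of neurons, rose from 117, 123 and 122 CPM to 193, 188 and 184 CPM (log2 fold change 0.64 ± 0.036 SE; edgeR adjusted p 1.00e-10). ITGB1, the integrin beta 1 chain that binds SEMA7A, rose from 167 ± 3.84 to 230.5 ± 0.941 CPM, and DCBLD2, a neuropilin-like membrane protein, from 173 ± 7.69 to 210.0 ± 5.22 CPM (SD over 3 libraries). MET, the receptor kinase that couples to type B plexins, named here after its values were seen, rose from 39.6 ± 4.88 to 55.2 ± 1.77 CPM (SD over the 3 libraries of a group; edgeR adjusted p 1.05e-05). By p-value, the falls were led by the VEGF receptor gene FLT4 (log2 fold change -1.61), the integrin alpha chain ITGA1 (-0.33) and CSPG4 (-1.82). NRCAM, a neural adhesion molecule named after its values were seen, was the other gene that fell (-1.43). The VEGF receptor gene KDR had a mean of 0.5 counts.

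Other ligands of neuropilins divided evenly. All 6 tested genes passed, beside 38.5% of all tested genes, 3 higher and 3 lower; their log2 fold changes had a median of -0.11. TGFB1 rose from 108 ± 3.88 to 159 ± 4.02 CPM and PGF from 10.9 ± 0.411 to 14.3 ± 0.808 CPM (SD over the 3 libraries of a group; edgeR adjusted p 1.72e-09 and 0.00187). VEGFB rose by 0.17 on the log2 scale (edgeR adjusted p 0.0232, but 0.114 without control replicate 2 and 0.0615 without knockdown replicate 1, and 0.144 in DESeq2). VEGFA, the main VEGF ligand of NRP1, fell from 9.89 ± 0.292 to 6.72 ± 0.807 CPM, and FGF2 from 3.30 ± 0.497 to 1.35 ± 0.153 CPM (SD over the 3 libraries of a group; edgeR adjusted p 0.000858 and 0.000153). PDGFB had a log2 fold change of -0.40 (edgeR adjusted p 0.0155, but 0.0583 without control replicate 3 and 0.0621 without knockdown replicate 1, and 0.123 in DESeq2).

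Of 42 tested cytoplasmic effectors, 11 rose, 11 fell and 20 did not pass, with a median log2 fold change of 0.02, so 52.4% were called, beside 38.5% of all tested genes. LIMK1, the kinase that phosphorylates cofilin downstream of plexins, rose from 141 ± 3.82 to 227 ± 11.2 CPM (SD over the 3 libraries of a group; log2 fold change 0.69 ± 0.039 SE; edgeR adjusted p 1.28e-10). MICAL1, an actin-oxidising enzyme bound by type A plexins, and DPYSL5, a collapsin response mediator, rose by 0.48 and 0.35 on the log2 scale. RAC1, the GTPase that binds type B plexins, fell from 488 ± 5.46 to 396 ± 4.72 CPM, and its target kinase PAK1 from 24.9 ± 0.885 to 18.3 ± 0.597 CPM (SD over 3 libraries). MRAS, a Ras-type GTPase, had a log2 fold change of -1.53 at a mean of 44.3 counts.

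Of 7 tested proteases that cut semaphorins or their receptors, ADAM17 rose (log2 fold change 0.31) and MMP14 (-0.18) and PCSK6 (-0.23) fell (42.9% called, beside 38.5% of all tested genes). The call of PCSK6 was lost in the DESeq2 Wald test (adjusted p 0.0811). For comparison, 4 of 5 tested SLIT and ROBO genes passed (1 higher, 3 lower), as did 7 of 18 Eph receptors and ephrins (3 higher, 4 lower) and 4 of 6 netrins and netrin receptors (1 higher, 3 lower). The shares called were 80.0%, 38.9% and 66.7%, beside 38.5% of all tested genes. The differences between these families and the semaphorin family were not tested.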

How the data were processed

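RNA-seq counts of 6 SW403 libraries, 3 control and 3 IRS2 knockdown, were analysed. The authors deposited whole-number counts per gene symbol, and a second table of normalized signal in which each library's counts were divided by one constant (0.847 to 1.25), per the values themselves. Per the submitters' processing notes, STAR 2.6.1a, Salmon, DESeq2 and hg19 were used; their roles, the annotation and the strand setting are not given in the sources used here. Columns were matched by sample description, and 0 per-sample columns were unused. Counts were tested with edgeR 4.0.16 (R 4.3.3): filterByExpr, TMM factors, quasi-likelihood F-test on group alone, Benjamini-Hochberg adjustment over all 13832 tested genes, threshold 0.05. SE is the absolute log2 fold change over the square root of F. A single gene's exact permutation test at 3 against 3 cannot go below p = 0.1. Coordinates, exons and lengths come from GENCODE lifted to GRCh37, and 95.8% of tested genes had a length.

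The genes, the pathway and marker lists and the alternatives were chosen with earlier results of these data known. Every family gene past the count limit is named, and in each pathway list up to 3 genes with the smallest p in each direction. Alternatives used other scaling factors, filters and thresholds, DESeq2 1.42.0, limma 3.58.1 (voom, and the deposited normalized values as log2 with pseudocount 1), thinned counts, a replicate block, and each library left out. A length and GC correction, and the alternatives for marker genes, were added after the data were seen. Tallies per gene over 18 alternatives leave out the stricter threshold of 0.01, which PLXNB1, SEMA3B and SEMA6C did not pass. The fits were tested on simulated data. Replicate pairs within groups differed by more than counting error (chi-square over degrees of freedom 1.41 to 2.78); intervals and floors cover counting error only.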

Additional observations from a re-analysis of the deposited data

How the results depend on the processing

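Over 18 alternatives IRS2 stayed between -1.42 and -1.35 (log2 fold change) and its largest adjusted p was 2.67e-09. Of 458 values for the 26 genes under the alternatives, 421 kept direction and side of the threshold, 25 lost and 4 gained the call, and 8 changed sign. The calls for NRP1, NRP2, PLXNA1, PLXNA3, PLXNB2, PLXND1, SEMA4B, SEMA3C, SEMA3D, SEMA3F, SEMA6A and SEMA6D passed in every alternative that tested them. PLXNB1, SEMA3B and SEMA6C reached largest adjusted p-values of 0.230, 0.20 and 0.117. With genes under a mean of 50 counts dropped, 8 genes were past the threshold, of which 1, a semaphorin, was lower, because 5 of the 6 were then not tested. Leaving out each library gave 13 to 15 genes past the threshold. The sign changes were those of SEMA6B (0.0079 without a low-count filter, 0.0038 in DESeq2, 0.0027 in limma on the deposited values, -0.031 to 0.022 leaving out each library) and SEMA4G (-0.24 to 0.041 leaving out each library). At an adjusted p under 0.01, 14 of the cytoplasmic effectors passed, against 22; in DESeq2 15 did. Over all genes, DESeq2 called 1945 higher and 1654 lower of 15331 tested, against 2676 and 2653 of 13832. Counts thinned to the smallest library gave 13 genes past the threshold, without PLXNB1 and SEMA3B. Same-numbered libraries deviated from their group means with correlations of 0.045, -0.011 and -0.098, so the numbers were not read as pairs. With the replicate block 14 genes passed, with SEMA3B lost (adjusted p 0.0696). With the length and GC correction 14 passed, with and without the block. For scarce genes, 3 counts correspond to 0.168 to 0.251 CPM, which limits what can be said of PLXNA2, PLXNA4, SEMA3E, SEMA4A, SEMA5A and SEMA5B. The cause of changes other than fewer genes or libraries was not tested.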
